A study of Mus musculus with 2 samples.

Results

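Aminoacyl-tRNA synthetase genes were compared between neurospheres overexpressing miR-153 and control neurospheres, with 1 array in each of the 2 groups. The members were 36 genes, 20 coding for cytosolic and 16 for mitochondrial enzymes, out of 36400 gene names with a probe on the array. The rule for membership uses gene names alone, but the family was picked with earlier results of these data known. Names ending in 2 were taken as mitochondrial and the others as cytosolic, and the single genes Gars and Kars make the enzyme for both compartments. Of the 36 genes, 35 were well above background on both arrays, all 20 cytosolic and 15 mitochondrial.

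Both samples were NSPCs, neural stem or progenitor cells, which came from mouse embryonic stem cells by way of embryoid bodies and were grown as floating neurospheres. They were at passage 2 and were collected on day 18 of culture counted from the embryoid bodies. The miR-153 array held RNA of cells labelled as overexpressing the microRNA miR-153, and the control array held RNA of cells labelled as the overexpression control. The vector, its promoter and the embryonic stem cell line are not named in the labels used here. A single array per group leaves the spread between cultures unmeasured. Fewer cells of a type and less RNA per cell cannot be told apart in such bulk samples. The mature microRNA was not measured by these probes, and its RefSeq sequence (GRCm38.p6, chr12:117250860-117250881, plus strand) is given for identity, with the seed, bases 2 to 8, in capitals.
mmu-miR-153-3p: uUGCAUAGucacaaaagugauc

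An aminoacyl-tRNA synthetase joins an amino acid to its matching tRNA, and the charged tRNA then brings the amino acid to the ribosome. Animal cells keep separate sets of these enzymes for the cytosol and for the mitochondrion, both encoded in the nucleus, and several cytosolic enzymes are held in a multisynthetase complex by scaffold proteins. When amino acids run short or the endoplasmic reticulum is stressed, kinases of the initiation factor eIF2 raise translation of the transcription factor ATF4, which in mammalian cells switches on genes for amino acid uptake, amino acid synthesis and many cytosolic synthetases.

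Each array was scaled to its own 75th percentile of signal, which was 549 intensity units on the miR-153 array and 435 on the control array. A signal printed below is the unscaled processed intensity of the brightest probe of a gene, and a log2 difference is the scaled miR-153 value minus the scaled control value. Equal unscaled signals therefore stand for a lower scaled value on the miR-153 array. Over the 20437 genes measured on both arrays the median log2 difference was -0.11 (quartiles -0.58 and 0.40). The log2 difference had a median SD of 0.075 between repeat spots of a probe (288 probes) and a root mean square SD of 0.47 between different probes of a gene (5025 genes), called the SD between probes here. The scanner's call of well above background was met by 32969 (55.6%) of the 59305 non-control spots of the miR-153 array and by 31132 (52.5%) of those of the control array, and no spot was saturated. A single array per group allows no test, p-value or replicate check, so "higher" and "lower" describe these 2 arrays. A difference of at least 2-fold was counted as a fixed rule of size.

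Cytosolic synthetase genes lay mostly lower on the miR-153 array, and mitochondrial ones lay around no difference. The median log2 difference of the 20 cytosolic genes was -0.40 (range -1.54 to 0.56), and that of the 15 measured mitochondrial genes was -0.02 (range -0.87 to 0.98), a gap of -0.38 between the medians. Of the cytosolic genes 17 (85%) were below 0, against 8 (53.3%) of the mitochondrial genes and 56.1% of all genes. At least 2-fold lower were 3 cytosolic genes (15%) and 0 mitochondrial genes, beside 11.0% of all genes. At least 2-fold higher were 0 of the 35 measured members, beside 9.23% of all genes. The share of 2-fold lower cytosolic genes thus lay near that of all genes, and the set differed from all genes in where its middle lay. Most single members differed by less than the SD between probes, 13 of 20 cytosolic and 11 of 15 mitochondrial genes. Without Gars and Kars, the 18 remaining cytosolic genes had a median of -0.37, and 15 of them were below 0.

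**Figure D1:**
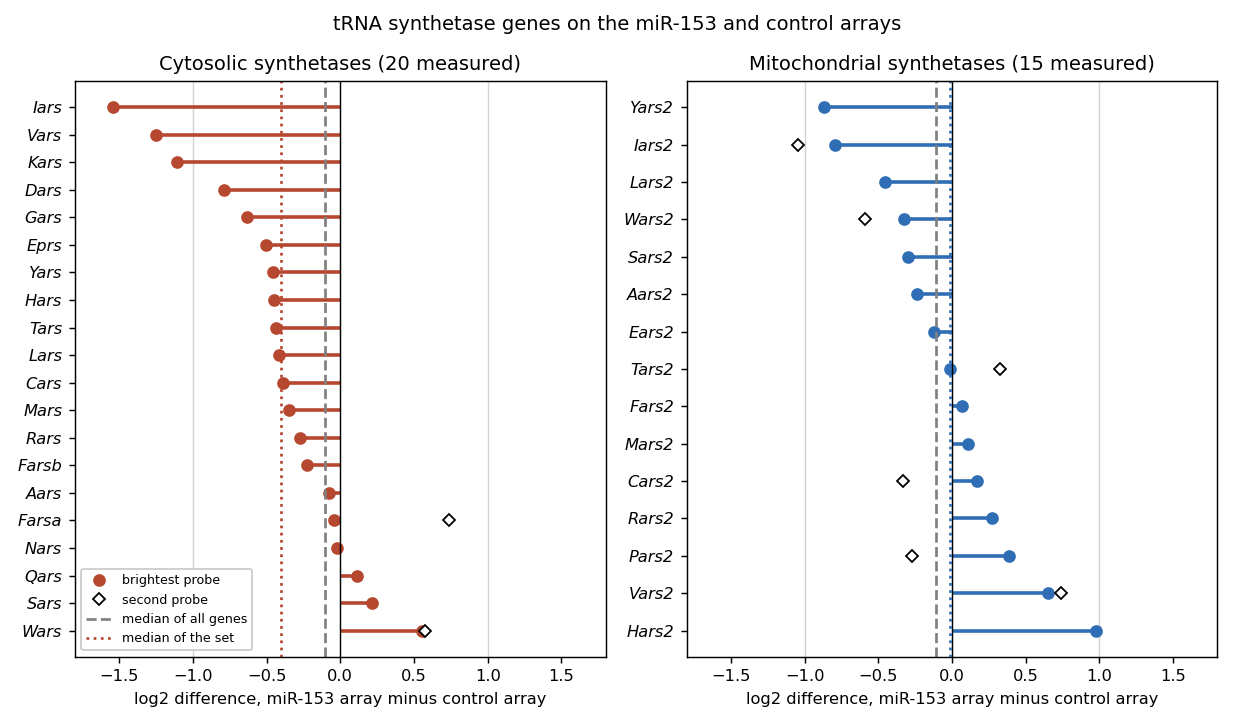
Log2 difference between the miR-153 and control arrays for the 20 cytosolic (left) and 15 measured mitochondrial (right) synthetase genes, with filled points for the brightest probe, diamonds for a second probe, a dashed line at the median of all genes and a dotted line at the median of the set. The cytosolic genes run from -1.54 to 0.56 around a median of -0.40, and the mitochondrial genes from -0.87 to 0.98 around -0.02.

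The 3 cytosolic genes past 2-fold charge isoleucine, valine and lysine, and Iars alone of them was past 2-fold under every alternative that read its probe. Iars, the isoleucyl-tRNA synthetase, had a signal of 1817 on the miR-153 array and 4189 on the control array, a log2 difference of -1.54 or 2.91-fold lower. Its probe lies at mm9 chr13:49829328-49829387 on the plus strand, and 4.57% of all genes had a difference as low or lower. Vars, the valyl-tRNA synthetase, which binds the elongation factor 1 complex, had 1101 on the miR-153 array and 2073 on the control array, a log2 difference of -1.25 or 2.38-fold lower (probe at chr17:35152339-35152398, plus strand), and was just short of 2-fold with spike-in scaling (-0.99). Isoleucine and valine are branched-chain amino acids, and leucine is the other one. Lars, the leucyl enzyme, had 7403 on the miR-153 array and 7817 on the control array, a log2 difference of -0.41, close to the median of the cytosolic set. Kars, the lysyl enzyme of cytosol and mitochondrion, had 7963 on the miR-153 array and 13601 on the control array, 2.16-fold lower at a log2 difference of -1.11 (probe at chr8:114517440-114517499, minus strand). Kars was less than 2-fold lower after quantile normalization (-0.94), lowess (-0.90) and spike-in scaling (-0.85). All 3 genes have a single probe on the array, so no second probe bears on them.

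Dars and Gars came next. Dars, the aspartyl-tRNA synthetase, had a signal of 404 on the miR-153 array and 552 on the control array, 1.73-fold lower at a log2 difference of -0.79. Gars, the glycyl enzyme that serves both compartments, had 28460 on the miR-153 array and 35012 on the control array, a log2 difference of -0.63. The value of Gars depended on the scaling more than that of any other cytosolic gene with 1 probe, at -0.20 after lowess on level and -0.12 after quantile normalization. With Eprs, Iars, Vars, Kars and Dars, it made up the 6 cytosolic genes that were lower by more than the SD between probes.

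A middle group of 9 cytosolic genes, Lars among them, differed by -0.23 to -0.51 on the log2 scale, each by 1.42-fold or less. Eprs, a fused enzyme that charges both glutamate and proline, had 1064 on the miR-153 array and 1198 on the control array (-0.51). Hars, the histidyl enzyme, had 2700 on the miR-153 array and 2927 on the control array (-0.45). Yars, the tyrosyl enzyme, had 106 on the miR-153 array and 115 on the control array, also a log2 difference of -0.45 but at a low signal. For these genes the unscaled signals of both arrays were nearly equal, and the scaled difference reflects the higher 75th percentile of the miR-153 array. Tars, the threonyl enzyme, had 4599 on the miR-153 array and 4919 on the control array (-0.43). Cars, the cysteinyl enzyme, had 6061 on the miR-153 array and 6286 on the control array (-0.39). Mars, the methionyl enzyme, which charges the initiator tRNA as well, had 1406 on the miR-153 array and 1417 on the control array (-0.35). Rars, the arginyl enzyme, and Farsb, the beta subunit of the phenylalanyl enzyme, were nearer to the median of all genes. Rars had 341 on the miR-153 array and 326 on the control array (-0.27), and Farsb had 2623 on the miR-153 array and 2432 on the control array (-0.23).

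The other 6 cytosolic genes lay at or above the median of all genes. Aars, the alanyl enzyme, had 7943 on the miR-153 array and 6642 on the control array, a log2 difference of -0.08. Farsa, the alpha subunit of the phenylalanyl enzyme, had 5995 on the miR-153 array and 4904 on the control array (-0.05), and its second probe gave 0.74, so the 2 probes disagree. Nars, the asparaginyl enzyme, had 1731 on the miR-153 array and 1393 on the control array (-0.02). These 3 genes were level between arrays within the SD between probes, and the next 3 were above 0. Qars, the glutaminyl enzyme, had 8621 on the miR-153 array and 6309 on the control array (0.11). Sars, the seryl enzyme, had 15643 on the miR-153 array and 10679 on the control array (0.21). Wars, the tryptophanyl enzyme, which is induced by interferon in mammalian cells, stood furthest on the higher side. It had 15698 on the miR-153 array and 8456 on the control array, 1.47-fold higher at a log2 difference of 0.56, and its second probe gave 0.57 (brightest probe at chr12:110098245-110098304, minus strand).

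**Figure D2:**
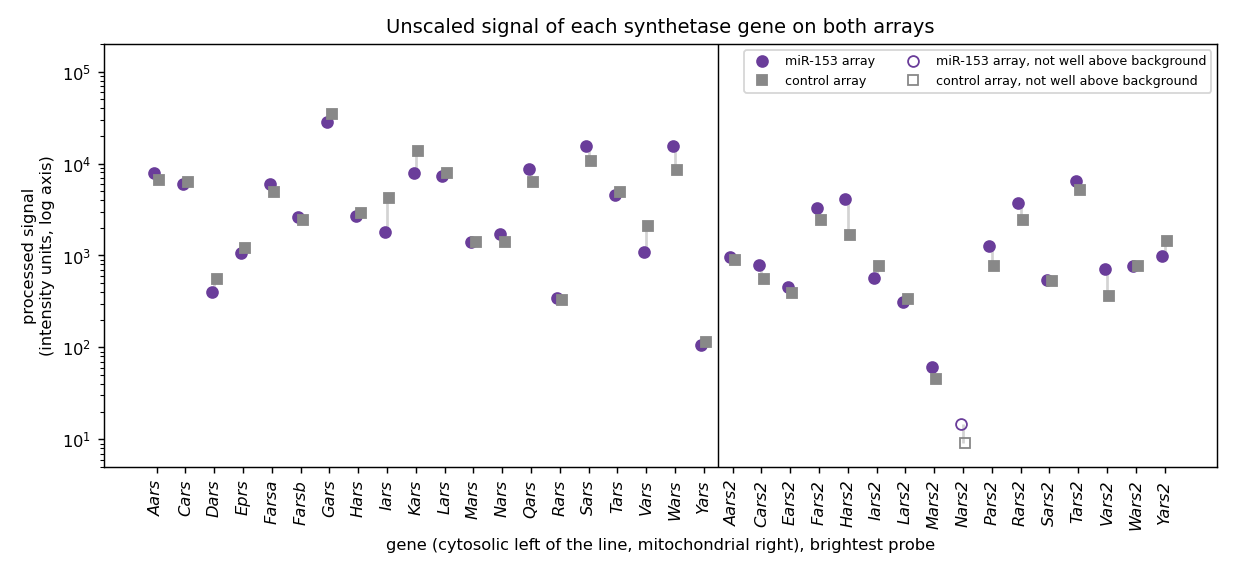
Unscaled processed signal, in intensity units on a log axis, of the brightest probe of each of the 36 genes on the miR-153 array (circles) and the control array (squares), with open symbols for a gene not well above background. The widest gaps with the miR-153 array lower are at Iars (1817 against 4189) and Vars (1101 against 2073), and the widest gap with it higher is at Hars2 (4162 against 1677); signals of different genes come from different probes and are not comparable.

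Among the mitochondrial enzymes the genes spread to both sides of 0. Hars2, the mitochondrial histidyl enzyme, had a signal of 4162 on the miR-153 array and 1677 on the control array, 1.97-fold higher at a log2 difference of 0.98 (probe at mm9 chr18:36951466-36951525, plus strand). It was just short of the 2-fold rule, and passed it with normexp background correction (1.01), median scaling and spike-in scaling (1.24). Vars2, the mitochondrial valyl enzyme, had 721 on the miR-153 array and 364 on the control array, 1.57-fold higher at 0.65, and its second probe gave 0.74. These were the 2 mitochondrial genes higher by more than the SD between probes. Pars2, the prolyl enzyme, had 1278 on the miR-153 array and 774 on the control array (0.39), but its second probe gave -0.27. Rars2, the arginyl enzyme, had 3729 on the miR-153 array and 2449 on the control array (0.27). Cars2, the cysteinyl enzyme, had 783 on the miR-153 array and 551 on the control array (0.17), and its second probe gave -0.33. For Pars2 and Cars2 the direction thus rests on which probe is read. The second probe of Pars2 was dim, with 30.1 on the miR-153 array and 28.7 on the control array. That of Cars2 was brighter, with 263 on the miR-153 array and 262 on the control array.

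On the lower side stood the mitochondrial tyrosyl and isoleucyl enzymes. Yars2 had a signal of 998 on the miR-153 array and 1443 on the control array, 1.82-fold lower at a log2 difference of -0.87 (probe at chr16:16307393-16307452, plus strand). Iars2 had 562 on the miR-153 array and 771 on the control array, 1.73-fold lower at -0.79, and its second probe gave -1.05, past 2-fold. Isoleucine was thus the single amino acid for which a cytosolic and a mitochondrial gene were both lower by more than the SD between probes. Lars2, the leucyl enzyme, had 313 on the miR-153 array and 339 on the control array (-0.45). Wars2, the tryptophanyl enzyme, had 770 on the miR-153 array and 765 on the control array (-0.33, second probe -0.59). Sars2, the seryl enzyme, had 539 on the miR-153 array and 525 on the control array (-0.30). All 3 lay within the SD between probes on the brightest probe.

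The remaining mitochondrial genes lay between the quartiles of all genes or were too dim. Aars2, the alanyl enzyme, had 955 on the miR-153 array and 893 on the control array (-0.24), and Ears2, the glutamyl enzyme, had 457 on the miR-153 array and 393 on the control array (-0.12). Tars2, the threonyl enzyme, had 6443 on the miR-153 array and 5163 on the control array (-0.02, second probe 0.33). Fars2, the single-chain phenylalanyl enzyme, had 3252 on the miR-153 array and 2454 on the control array (0.07). Mars2, the methionyl enzyme, was dim, with 61.9 on the miR-153 array and 45.6 on the control array, and its difference of 0.11 became -0.16 with normexp background correction. Nars2, the asparaginyl enzyme, was not well above background on either array, with 14.6 on the miR-153 array and 9.21 on the control array, and no fold is given. Over the whole family, 8 genes had 2 measured probes, and the probes had the same sign in 4 of them. Where the signs differed, Tars2 was near 0 on its brightest probe, and the second probe of Pars2 was dim. The second probe of Wars2, of the same sign as its first, was dim as well (38.7 on the miR-153 array, 46.3 on the control array).

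Setting each cytosolic gene against its mitochondrial partner of the same amino acid gave 17 pairs, of which 16 were measured in both genes. The cytosolic gene had the lower log2 difference in 11 pairs and the higher one in 5. In 8 pairs the cytosolic gene was below 0 and the mitochondrial gene above it, and in 2 pairs, serine and tryptophan, it was the reverse. The valine pair lay furthest apart, with Vars at -1.25 and Vars2 at 0.65, a gap of -1.90. The histidine pair followed, with Hars at -0.45 and Hars2 at 0.98, a gap of -1.43. These 2 histidyl genes are neighbours on chromosome 18, on opposite strands (the Hars probe lies at chr18:36926985-36927794, minus strand). Opposite the others stood the tryptophan pair, with Wars at 0.56 and Wars2 at -0.33, a gap of 0.88. A gap between probes of 2 genes carries an SD of 0.66 on the spread between probes, which 4 pairs passed with the cytosolic gene lower (valine, histidine, proline and isoleucine) and 1 pair with it higher (tryptophan). The proline and isoleucine pairs passed it on the brightest probe alone. The second probe of Pars2 (-0.27, but dim) lay nearer to Eprs (-0.51), and that of Iars2 (-1.05) nearer to Iars (-1.54). The longest run of bases shared by the probes of any pair was 7, so partner genes were read by unlike probes. Eprs enters 2 pairs, with Ears2 and Pars2, and Fars2 enters 2, with Farsa and Farsb, so the pairs are not independent.

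**Figure D3:**
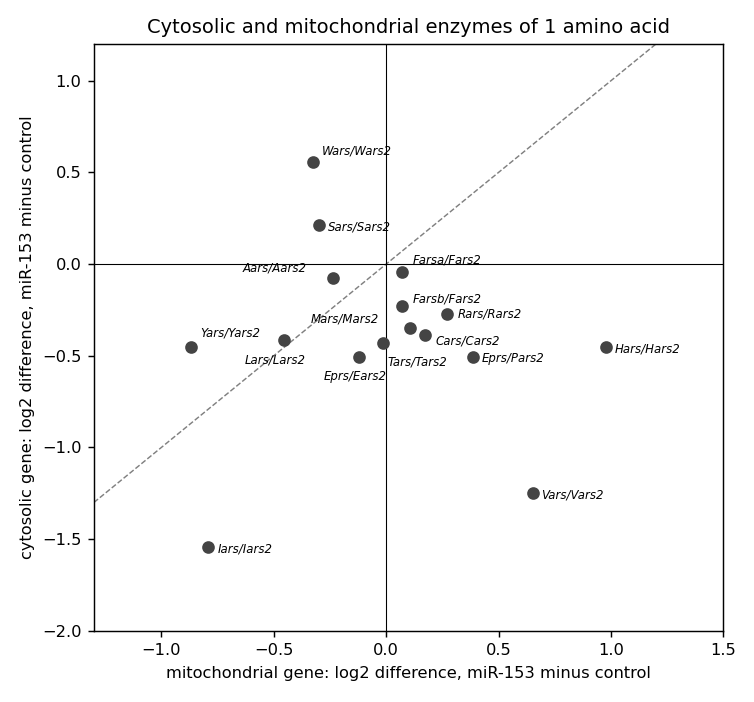
Log2 difference between the miR-153 and control arrays of the mitochondrial gene (horizontal axis) and the cytosolic gene (vertical axis) in 16 pairs charging the same amino acid, with the dashed line where both are equal. Of the pairs 11 lie below the line, with Vars/Vars2 (-1.25 and 0.65) furthest from it, and 5 lie above it, with Wars/Wars2 (0.56 and -0.33) furthest.

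Signal level differed between the sets and moved with the difference over all genes. When all measured genes were divided into 8 bands of equal size by mean level, the brightest band had a median log2 difference of -0.43, the band below it -0.05, and the dimmest -0.23. The upper 2 bands held 10 of 20 cytosolic genes (50%) and 2 of 15 mitochondrial genes (13.3%). Relative to the median of its own band, the median cytosolic gene stood at -0.35, with 16 of 20 below 0, and the median mitochondrial gene at 0.03, with 7 of 15 below 0. The medians of both sets were therefore close to the unadjusted ones (-0.40 and -0.02). Gars and Kars lie in the brightest band, where they stood at -0.21 and -0.68 relative to it, while Iars at -1.58 and Vars at -1.29 were as far from their bands as from 0.

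By enzyme structure, synthetases fall into class I and class II, which attach the amino acid through unlike catalytic folds. The 19 class I genes had a median log2 difference of -0.35, with 2 at least 2-fold lower, and the 16 measured class II genes had a median of -0.15, with 1 at least 2-fold lower. Those shares, 10.5% and 6.25%, are at or below the 11.0% of all genes. By assembly, the 8 cytosolic enzymes of the multisynthetase complex (Dars, Eprs, Iars, Kars, Lars, Mars, Qars and Rars) had a median of -0.46, with 7 below 0 and 2 at least 2-fold lower (25%, beside 11.0% of all genes), or 1 after quantile normalization, lowess or spike-in scaling. The 3 scaffold proteins of that complex were lower as well, each by less than 2-fold. Aimp1 had 6606 on the miR-153 array and 7902 on the control array (-0.59). Aimp2 had 7935 on the miR-153 array and 10457 on the control array (-0.73), and Eef1e1 had 2026 on the miR-153 array and 2526 on the control array (-0.65). With this scaling the scaffold genes lay below the median of the enzymes they hold, each by less than the SD between probes. After lowess Aimp1 was level with that median, both at -0.47.

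Genes of the ATF4-driven amino acid response are a group with which many cytosolic synthetases are known to be co-regulated. Of 28 such genes, 27 were measured on both arrays, with a median log2 difference of -0.84, 26 below 0, 13 (48.1%, beside 11.0% of all genes) at least 2-fold lower and 0 at least 2-fold higher. Their median shrank to -0.57 after lowess and -0.61 after quantile normalization, with 13 genes at least 2-fold lower under each. On the second brightest probe, which 8 of these genes had, it was -0.25. Trib3, a pseudokinase that restrains ATF4, had 123 on the miR-153 array and 1127 on the control array (-3.53, or -2.85 with normexp). Eif4ebp1, the translation repressor 4E-BP1, had 523 on the miR-153 array and 4178 on the control array (-3.34, or -3.15 with normexp), so which of these 2 genes was furthest lower depends on the background correction. Chac1, which degrades glutathione, had 278 on the miR-153 array and 1119 on the control array (-2.35). Slc7a1, the transporter of arginine and lysine, had 1706 on the miR-153 array and 6575 on the control array (-2.28). These 4 genes were lower by more than any synthetase. Slc7a11, the cystine transporter, went the other way: it passed the background call on the miR-153 array alone, with 140 there and 20.3 on the control array, at least 5.48-fold higher. That bound depends on the background correction, since with normexp the log2 difference of Slc7a11 was 0.94, which is less than 2-fold. Atf4 itself had 30253 on the miR-153 array and 42862 on the control array (-0.84). This value was -0.58 with spike-in scaling and -0.38 after lowess, the latter within the SD between probes. The kinases of eIF2 showed smaller differences, with Eif2ak1, the heme-regulated kinase, at 0.33 (325 on the miR-153 array, 204 on the control array), and the other 3 below 0. Eif2ak2, activated by double-stranded RNA, stood at -0.36 (291 and 296), Eif2ak3, of the endoplasmic reticulum, at -0.49 (427 and 475), and Eif2ak4, activated by uncharged tRNA, at -0.34 (1802 and 1813), each with the miR-153 signal given first.

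The cytosolic set was also split by a list of 12 genes taken to be induced by ATF4 (Aars, Cars, Eprs, Gars, Iars, Lars, Mars, Nars, Sars, Tars, Wars and Yars), which was drawn up from general knowledge with no source among the data. These 12 genes had a median log2 difference of -0.40, with 10 below 0 and 1 at least 2-fold lower (8.33%). The 8 other cytosolic genes had a median of -0.36, with 7 below 0 and 2 at least 2-fold lower (25%), or 0 with spike-in scaling. Over all genes 11.0% were at least 2-fold lower and 56.1% were below 0. No test compares the 2 groups, and the part of ATF4 in the differences was not tested.

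The amino acid response element bound by ATF4 with a C/EBP partner reads TGATGNAA, or TTNCATCA on the opposite strand. These 8 letters were searched on both strands of RefSeq promoters of GRCm38.p6, from 250 bases before to 50 bases after the start of the gene. The letters were present in 5 of the 12 cytosolic genes with a promoter in that table (41.7%), in 0 of 14 mitochondrial genes and in 7 of 23 genes of the amino acid response (30.4%), against 1219 of all 27025 genes with a promoter (4.51%), or 1304 of 32851 promoters (3.97%). Among the cytosolic genes with a promoter, the letters were in 5 of 7 genes on the ATF4 list above (71.4%) and in 0 of 5 others. A split of the cytosolic genes by the letters thus overlaps with the split by that list. A match is a description of the letters, and binding was not measured. The sequences around the matches in the 5 genes show the shared letters, in capitals, at different distances from the start, 5′ to 3′ along each gene.
Aars, chr8:111033694-111033773, plus strand, 112 bases before the start: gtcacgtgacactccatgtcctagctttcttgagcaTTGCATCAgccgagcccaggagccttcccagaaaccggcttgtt
Aars, chr8:111033840-111033869, plus strand, 9 bases after the start: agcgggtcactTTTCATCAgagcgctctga
Gars, chr6:55037935-55038000, plus strand, 30 bases before the start: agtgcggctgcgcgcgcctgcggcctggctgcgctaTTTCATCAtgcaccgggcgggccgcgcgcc
Iars, chr13:49682126-49682155, plus strand, 7 bases after the start: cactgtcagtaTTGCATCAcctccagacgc
Tars, chr15:11399659-11399709, minus strand, 15 bases before the start: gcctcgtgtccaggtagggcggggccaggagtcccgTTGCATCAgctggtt
Yars, chr4:129189895-129189924, plus strand, 3 bases after the start: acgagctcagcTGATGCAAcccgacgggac

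Iars, Tars and the upstream site of Aars carry the same 8 letters, TTGCATCA, and Yars carries their reverse complement, while Gars and the second site of Aars carry TTTCATCA. The log2 differences of these genes ran from -1.54 in Iars through -0.63 in Gars, -0.45 in Yars and -0.43 in Tars to -0.08 in Aars. The part of the letters in these differences was not tested. The 5 cytosolic genes with the letters had a median of -0.45 with 1 at least 2-fold lower, and the 7 with a promoter but without them (Dars, Eprs, Farsa, Farsb, Kars, Qars and Sars) had a median of -0.23 with 1 at least 2-fold lower. The promoters of Cars, Hars, Lars, Mars, Nars, Rars, Vars and Wars were not analysed here.

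Translation factors also had a lower median for the cytosol than for the mitochondrion. Among 20 cytosolic initiation and elongation factors the median log2 difference was -0.38, with 15 below 0. It was nearer to 0 where the scaling follows level, at -0.14 after both quantile normalization and lowess, against -0.33 and -0.29 for the cytosolic synthetases. At least 2-fold lower were Eif2s2, the beta subunit of eIF2, at -1.10, and Eif5a, the hypusine-bearing elongation factor, at -1.02, which is 10% beside 11.0% of all genes, and no factor was at least 2-fold higher. Neither passed 2-fold after lowess (-0.86 and -0.77) or spike-in scaling (-0.84 and -0.76), and no factor did after quantile normalization. Among 13 measured mitochondrial translation factors the median was 0.00, with 6 below 0. Mrrf, the mitochondrial ribosome recycling factor, was the single one past 2-fold, higher at 1.74 (1.14 with normexp background correction).

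Genes that make, modify and move tRNA had medians near that of all genes. Of 32 tRNA maturation genes (median -0.11), 3 were at least 2-fold lower and 2 at least 2-fold higher. The lower ones were Rpp40, a ribonuclease P subunit, at -1.40 (-0.75 with normexp), Nsun2, a tRNA cytosine methyltransferase, at -1.39, and Mettl1, a tRNA guanosine methyltransferase, at -1.17 (-0.90 with spike-in scaling). The higher ones were Rpp25, another ribonuclease P subunit, at 1.43 (0.44 with normexp), and Pus3, a pseudouridine synthase, at 1.21. Of 20 genes of tRNA export and RNA polymerase III (median 0.05), 1 passed 2-fold. This was Polr3g, a polymerase III subunit abundant in pluripotent cells, at -3.04 (-2.25 with normexp).

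The 7 measured mitochondrial tRNA modification genes had a median log2 difference of -0.00, and none passed 2-fold. Mto1 and Gtpbp3, partners in 1 modification of the wobble base, stood apart at -0.91 and 0.48 (-0.80 and 0.14 with normexp). Gtpbp3 was dim, with 104 on the miR-153 array and 59.5 on the control array. Trmu, which thiolates the same base, stood at 0.61, and Trit1, Mtpap and Hsd17b10 at -0.00, -0.13 and 0.03. Pnpt1, a mitochondrial polynucleotide phosphorylase, stood at -0.53. The 5 synthetase-like and tRNA-deacylating genes had a median of -0.22, and none passed 2-fold. Tarsl2, a threonyl synthetase paralogue, stood at -0.49, the editing factors Aarsd1 and Prorsd1 at -0.70 and -0.22, and Dtd1, a D-aminoacyl-tRNA deacylase, at -0.04. Ptrh2, a mitochondrial peptidyl-tRNA hydrolase, stood at 0.94 (past 2-fold higher with spike-in scaling).

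**Figure D4:**
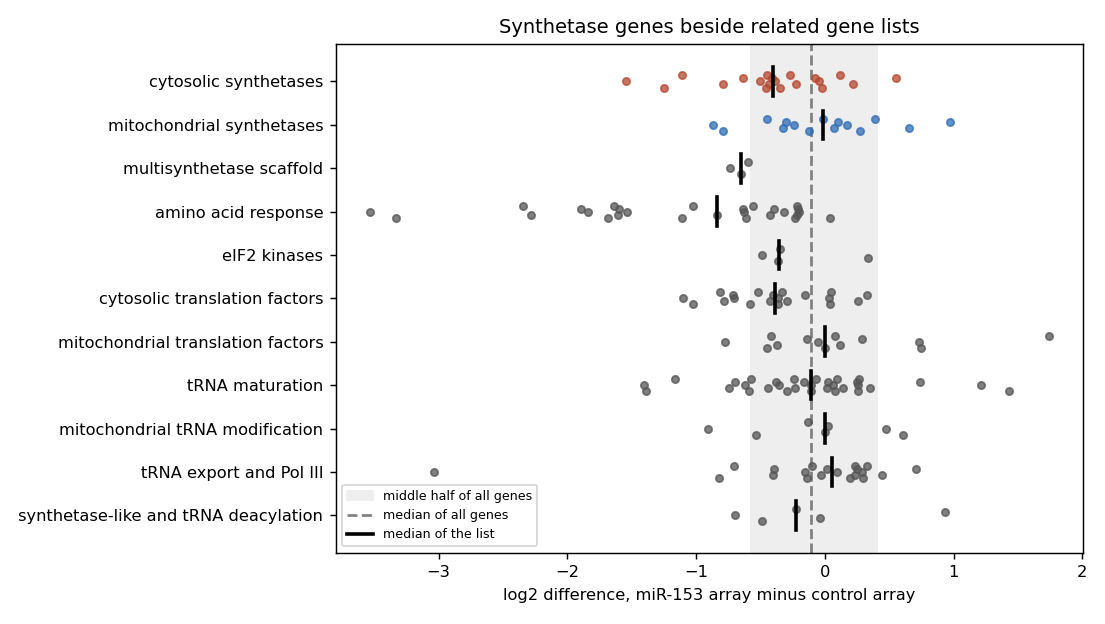
Log2 difference between the miR-153 and control arrays of each measured gene (points) in 11 gene lists, with a bar at each list's median, the band between the quartiles of all genes shaded and a dashed line at their median of -0.11. The amino acid response lies furthest lower with this scaling (median -0.84), but level with the multisynthetase scaffold after lowess (-0.57 and -0.56). Cytosolic synthetases (-0.40) and cytosolic translation factors (-0.38) lie close together with this scaling but not after lowess (-0.29 and -0.14). Mitochondrial synthetases (-0.02) and mitochondrial translation factors (0.00) lie near 0.

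Marker genes of the labelled cell type were present, and lists of markers for other cell types had medians that differed between the arrays. Sums and medians do not show whether the markers of a list agree, and a bright probe can dominate a sum. All 10 neural progenitor markers were well above background on both arrays, with a summed signal of 397467 on the miR-153 array and 313609 on the control array and a median log2 difference of 0.24. The sums here are unscaled and add different probes, while the medians are scaled. A higher sum on the miR-153 array thus partly reflects its higher 75th percentile (549 against 435). Neuronal markers were measured in 5 of 6 (Map2 was not well above background), with a summed signal of 54766 on the miR-153 array and 15494 on the control array and a median log2 difference of 1.03. The 5 astrocyte markers summed to 18500 on the miR-153 array and 7402 on the control array, with a median log2 difference of 0.61. The 6 oligodendrocyte markers summed to 65984 on the miR-153 array and 36953 on the control array, with a median log2 difference of 1.5. The summed signal of pluripotency markers went the other way, at 1278 on the miR-153 array and 2099 on the control array, with a median log2 difference of -1.44. Of these 5 markers, 4 were measured on the miR-153 array and 3 on the control array. Pou5f1 passed the background call on the miR-153 array alone, against that direction, and Zfp42 was at background on both. Of the endoderm and mesoderm markers, 2 of 6 were above background on both arrays, with sums of 5856 on the miR-153 array and 7356 on the control array and a median of -0.38, while Gata4, Gata6, Sox17 and Afp were not. The part of cell composition in the synthetase differences was not tested.

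The gap between the sets was present under every alternative in which most members had a value. Over the alternatives other than the one that read each gene by its second brightest probe, the cytosolic median ran from -0.41 to -0.14 and the mitochondrial median from -0.08 to 0.24. Scaling to spike-in probes raised every difference by 0.26, which put the medians at -0.14 for the cytosolic set, 0.24 for the mitochondrial set and 0.16 for all genes, with 13 cytosolic and 5 mitochondrial genes below 0. Relative to all genes the order of the sets was the same. How far the cytosolic median lay below 0, and the sign of some single members, depended on the scaling. The split of all genes past 2-fold moved with it, at 1484 lower and 2913 higher with spike-in scaling, beside 2258 lower and 1887 higher with the 75th percentile. Iars kept a log2 difference of -1.55 to -1.28 and Hars2 one of 0.97 to 1.24 over the alternatives.

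**Figure D5:**
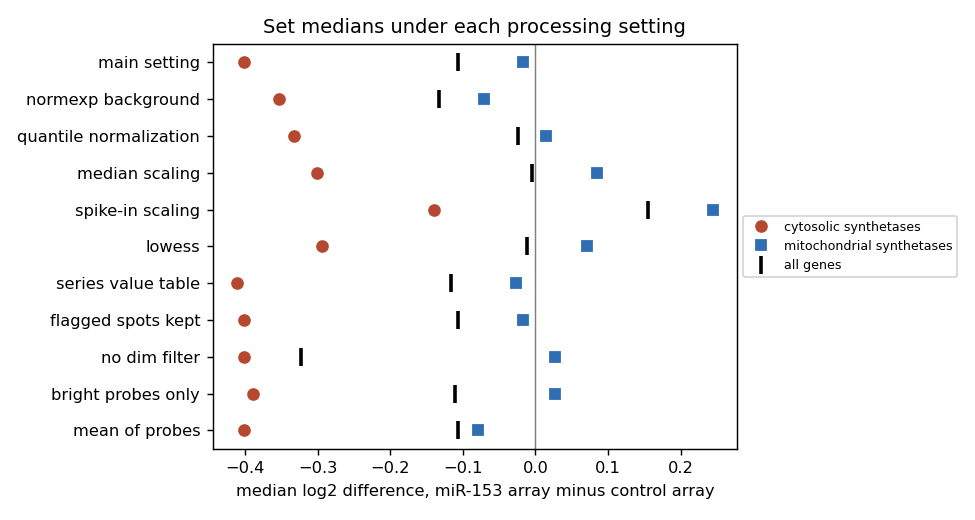
Median log2 difference between the miR-153 and control arrays of the cytosolic synthetases (circles), mitochondrial synthetases (squares) and all genes (ticks) under the main setting and 10 alternatives. The cytosolic median lies below that of all genes and the mitochondrial median above it in each row, from -0.40, -0.02 and -0.11 in the main setting to -0.14, 0.24 and 0.16 with spike-in scaling.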

How the data were processed

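Total RNA was labelled with cyanine-3 after low-input amplification and hybridised to 1-colour Agilent arrays, 1 per group. Per the file headers, 1 slide held both arrays. The values are scanner intensities the authors deposited, and the submitters' processing notes name Agilent Feature Extraction 10.7.3.1. Per the file headers, background had been subtracted from the processed signal, an intensity on a linear scale. The deposited series table holds the same intensities divided by a constant per array (485 for miR-153, 381 for control), so it is linear, uncentred and uninverted, with medians of 0.0614 and 0.0662, and served as an alternative. Columns of other samples in it numbered 0.

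Control spots and 229 spots with outlier flags were left out, and repeat spots were averaged, which left 55674 probes. Log2 of the signal minus the array's 75th percentile was compared, each gene standing by its brightest probe. A gene counted as measured when well above background on both arrays. Where it was so on 1 array, the fold is a lower bound against the lowest level well above background on the other array (-4.94 on the miR-153 array, -4.49 on the control array) or the gene's own signal there, whichever was higher. All 36 member accessions matched a RefSeq gene, 35 under the same symbol (Mars is Mars1 there). Probe positions are mm9, per the file headers. Promoter and microRNA sequences are from RefSeq (GRCm38.p6), used for sequence only.

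The members and the 14 gene lists were chosen with earlier results of these data known, so lists support nothing beyond their counts. All members are named. Of the other lists, those of up to 8 genes are given whole (1 gene is not reported here), and of longer ones the 4 furthest lower and higher among genes past 2-fold. Atf4 and Slc7a11 were named after their values were seen. The number of arrays limits precision. The steps were tested on simulated data. Python 3.11.15, pandas 2.3.3, statsmodels 0.14.6 and limma 3.58.1 in R 4.3.3 were used, with 11 alternative settings.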

Additional observations from a re-analysis of the deposited data

How the results depend on the processing

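No paired analysis was possible because each group has 1 array. With no replicates, no alternative left one out. The cytosolic median was below 0 under every alternative but the second probe. Reading genes by the second brightest probe left 2 cytosolic genes, Farsa and Wars, with a median of 0.66 and 0 at least 2-fold lower, 1 mitochondrial gene (Iars2) at least 2-fold lower and a gap of 0.96 between the medians, so that setting says little about the sets. It left 625 genes at least 2-fold lower and 453 higher, against 2258 lower and 1887 higher over all genes with the brightest probe. Spike-in scaling left 1 cytosolic gene at least 2-fold lower, put 1 mitochondrial gene (Hars2) past 2-fold higher, and turned the balance over all genes to 1484 lower and 2913 higher. Normexp background correction and median scaling also put 1 mitochondrial gene past 2-fold higher, and normexp left 1196 genes higher in all. Without the filter on dim probes 4359 genes were lower and 3599 higher, and with bright probes alone 908 were lower and 720 higher. The mitochondrial median, near 0, was above it under quantile normalization (0.01), median scaling (0.08), lowess (0.07), no filter and bright probes (0.03 each) and spike-in scaling (0.24). The sign of single members turned most often with spike-in scaling (7 of 35) and with the second probe (4 of 8). Dim genes such as Yars and Mars2 are limited by their signal over background.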
